A study of Mus musculus with 6 samples.

Results

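Integrins, laminins and collagens were followed in the EpCAM+ epithelium of the small intestine of mouse embryos. The genes were taken by symbol: integrin alpha (Itga) and beta (Itgb) names, laminin chains (Lama, Lamb, Lamc), collagen chains (Col), and 7 further matrix genes, *Fn1*, *Nid1*, *Nid2*, *Hspg2*, *Hapln1*, *Edil3* and *Vtn*. The 92 genes described here, of 23366 in the table, were 18 integrin alpha subunits, 9 integrin beta subunits, 10 laminin chains, 44 collagen chains, the 7 matrix genes and 4 genes that share the symbol pattern but encode no integrin subunit (*Itgb1bp1*, *Itgb1bp2*, *Itgb3bp* and *Itgbl1*). The rule itself uses no measured value.

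Integrins are cell surface receptors made of an alpha and a beta subunit, and they tie the cytoskeleton to the extracellular matrix. Laminins are trimers of an alpha, a beta and a gamma chain, and together with type IV collagen, nidogens and perlecan they form the basement membrane on which an epithelium rests. In the embryonic gut the epithelium and the mesenchyme below it both contribute to this sheet, whereas fibrillar collagens and much of the fibronectin come from mesenchyme.

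The study compared 3 libraries of genotype Shh-cre-egfp:*Tcf7l1* lox/lox (mutant) with 3 wild type libraries, all untreated and from E13.5 (embryonic day 13.5), to ask which genes depend on TCF7L1, a TCF/LEF factor known mainly as a repressor of WNT target genes. Cre in this line is made from the Shh locus, which is active in the gut endoderm. Whether the wild type embryos carried the Cre or the lox alleles, and whether a library held cells of 1 embryo or several, is not stated in the sources used here, so p-values measure the spread between these libraries. Each library came from 500 cells sorted for EpCAM.

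The libraries held 18216537 to 20397278 counts, and 12501 genes passed the filter on low counts and were tested. Normalized counts below are counts scaled for library size and composition, means are given ± SD (n = 3), and a gene was called when edgeR's quasi-likelihood test gave an adjusted p under 0.01 (Benjamini-Hochberg, over all tested genes), a log2 fold change of at least 0.5 in size and 50 normalized counts or more on average. *Tcf7l1* had 364 to 476 normalized counts in the wild type and 33.0 to 73.0 in the mutant libraries. Epithelial markers were abundant in every library (*Epcam* 47961 to 64100 normalized counts, summed level of the 8 markers 151440 to 166250). Of the 8, 3 were called lower in the mutant, *Cdh1*, *Krt18* and *Cdx2*, beside 5.83% of all tested genes. In 6 of the 8 the log2 fold change was below 0, and their median was -0.41, beside -0.04 over all tested genes. All wild type libraries held Y-linked transcripts and no *Xist*, and all mutant libraries held *Xist* and no reads of the 4 Y-linked genes examined, so sex, genotype and the Shh-cre-egfp allele cannot be told apart in any result below. Wild type library 3 lay nearest to the mutant libraries on the first principal component (score -30.4, against -41.2 and -41.7 for the other wild type libraries), and results that rest on a single library are given without it.

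In the wild type epithelium 24 of the 92 genes had a mean of at least 50 normalized counts, 59 had fewer and 9 had no count in any of the 6 libraries. For independently drawn reads a count of 0 allows up to 3 counts in a library, but these libraries differed by more than sampling noise. Of the 23 genes best known from epithelia, 14 reached a mean of 50 normalized counts. Of the 31 best known from mesenchyme 5 did, namely *Itga5*, *Fn1*, *Edil3*, *Hapln1* and *Col5a1*. Among the 9 genes known from leukocytes or platelets *Itgb7* alone did. These classes rest on general knowledge of the genes. In 43 of the 92 genes, no library reached 10 normalized counts.

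Per transcript length, *Itgb1*, the beta subunit shared by most matrix-binding integrins, was the highest at 116 ± 6.64 RPKM (reads per kilobase of the longest transcript, scaled to the size of the library and computed from the counts). *Itgb5* followed at 20.7 ± 2.42 RPKM. *Itga6*, whose product pairs with the beta subunits of *Itgb1* and *Itgb4* to bind laminin, stood at 11.4 ± 1.82 RPKM and led the alpha subunits. *Itgb1bp1* and *Itgb3bp*, which encode no subunit, stood at 18.4 ± 0.592 and 11.9 ± 1.67 RPKM, also above *Itga6* in the mean. Below these, the next members formed a group whose libraries overlapped with their neighbours: *Itgb6* at 7.97 ± 0.342, *Lamb1* at 7.33 ± 0.535, *Itgb7* at 6.27 ± 1.97, *Lamc1* at 5.48 ± 0.251 and *Fn1* at 5.47 ± 0.380 RPKM. Collagens were low: *Col4a1* at 1.82 ± 0.455 and *Col27a1* at 1.41 ± 0.340 RPKM were the only 2 of 44 chains with a mean above 1 RPKM.

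**Figure D1:**
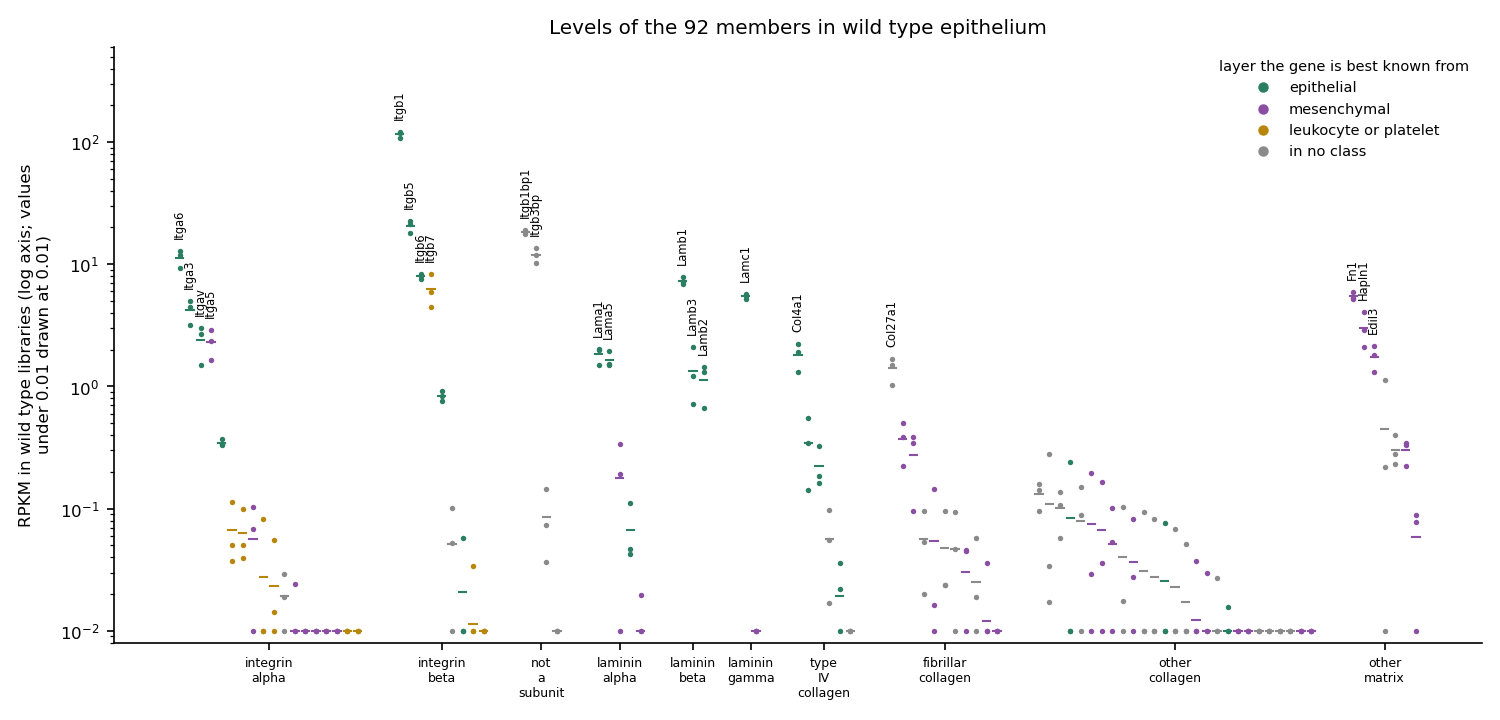
Level of each of the 92 genes in the 3 wild type libraries, in RPKM on a log axis, by role and in order of the mean. Points are libraries, short lines are means, colours give the layer a gene is best known from, and genes with a mean of at least 1 RPKM are named. *Itgb1* stands highest at 116 RPKM, and most collagens lie under 1 RPKM.

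In the mutant epithelium 9 of these genes were called lower and 0 higher. The genes called lower were *Edil3*, *Lamb2*, *Itga5*, *Itgb7*, *Hapln1*, *Col4a1*, *Lama5*, *Fn1* and *Itgb5*, so that they take in integrin subunits, an alpha and a beta laminin chain, a basement membrane collagen and other matrix proteins. They are 9 of the 34 members tested, beside 5.83% of all tested genes called lower. No member was called higher, beside 2.78% of all tested genes. At an unadjusted p under 0.05, 15 members were lower and 2 were higher. All tested genes were not counted at that cut, so these numbers have no background here. DESeq2 also called 9 members lower and 0 higher, beside 832 lower and 423 higher of all 12501 tested genes. In bulk samples fewer cells of a type and less RNA per cell cannot be told apart.

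Of the 34 members tested, 25 had a log2 fold change below 0 and 9 above 0, and their median was -0.42, where the median over all tested genes was -0.04. The 3 mutant libraries lay below all 3 wild type libraries in 15 members, beside 22.2% of all tested genes, and above all of them in 2, *Itgb6* and *Itgb1bp1*, beside 20.8%. The 59 members under 50 normalized counts in the wild type could not be called, since a call needs 50 on average over all libraries. Of these 59 members, 0 reached 50 in the mutant, and 10 passed the filter and were tested. Among the 24 members at or above 50 in the wild type, 19 had a log2 fold change below 0, and the 9 called lower and 0 called higher are to be read against 6.82% and 3.13% of all genes at that level. Without wild type library 1, 4 of 36 tested members were called lower, beside 405 of 12734 tested genes. Leaving out wild type library 2 gave 3 of 35, beside 406 of 12716, and leaving out mutant library 1 gave 5 of 35, beside 526 of 12842. Leaving out wild type library 3 gave 10 of 36, beside 867 of 12776. The main fit called 729 genes lower, so calls over all genes fell and rose in the same fits as those of the members. *Edil3*, *Itga5* and *Hapln1* were called lower whichever library was left out.

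**Figure D2:**
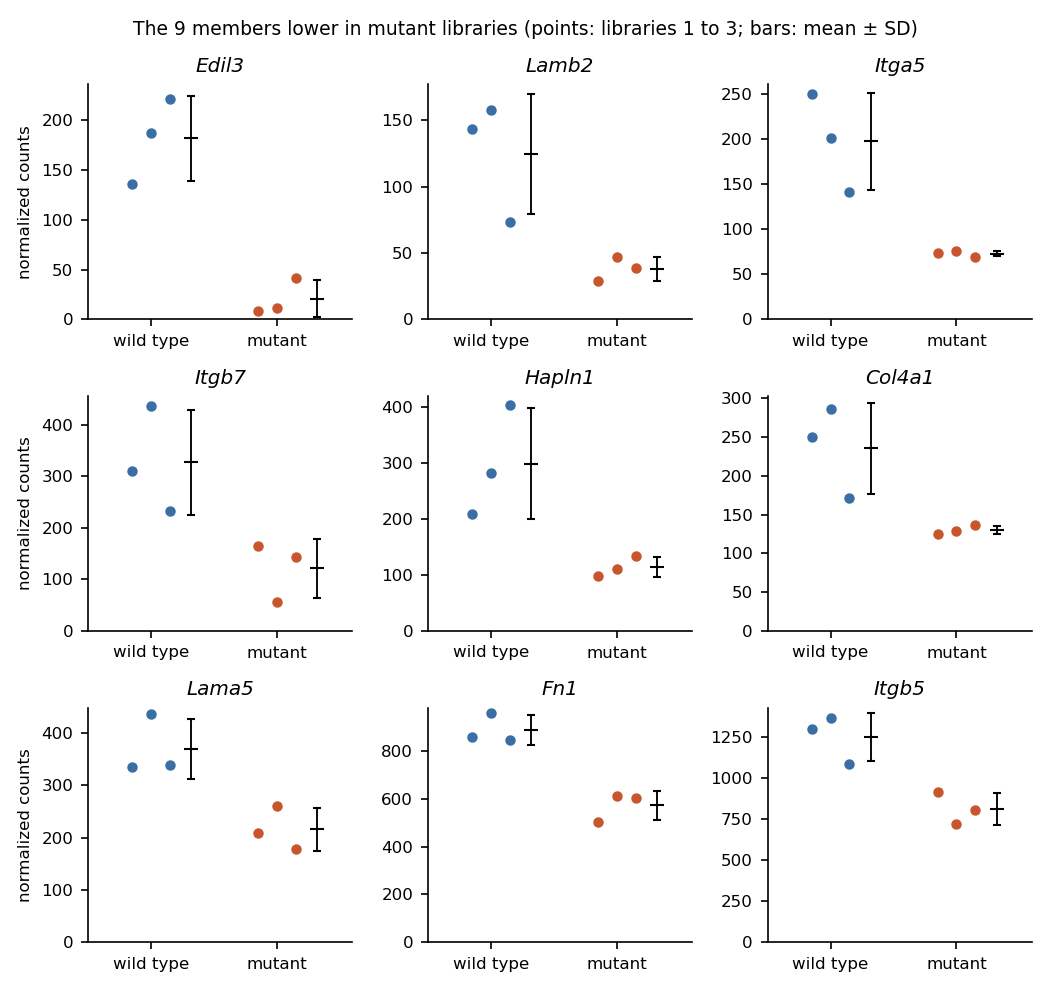
Normalized counts (vertical axes, each from 0) of the 9 genes called lower, with points for libraries 1 to 3 of each genotype and bars for the mean ± SD (n = 3). In every panel the highest mutant library lies below the lowest wild type library.

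The promoters of 3 called genes are shown because all 3 were called lower in embryos mutant for a DNA-binding TCF/LEF factor. RefSeq windows (GRCm38.p6) were at hand for 66 of the 92 genes and 7 of the 9 called, with no entry for *Edil3* and *Fn1*, so the largest changes with an entry were taken, *Lamb2*, *Itga5* and *Itgb7*. Each line gives the 250 bases before the annotated start, 5′ to 3′ on the gene's strand, at chr9:108479612-108479861 (plus strand) for *Lamb2*, chr15:103366792-103367041 (minus strand) for *Itga5* and chr15:102231936-102232185 (minus strand) for *Itgb7*. Capitals mark GC boxes (GGGCGG, or CCGCCC where it lies on the other strand).
Lamb2: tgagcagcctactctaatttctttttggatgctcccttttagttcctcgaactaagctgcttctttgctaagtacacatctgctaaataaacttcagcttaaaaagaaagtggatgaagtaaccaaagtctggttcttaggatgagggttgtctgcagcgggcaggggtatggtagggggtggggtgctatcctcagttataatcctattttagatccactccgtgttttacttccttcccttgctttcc
Itga5: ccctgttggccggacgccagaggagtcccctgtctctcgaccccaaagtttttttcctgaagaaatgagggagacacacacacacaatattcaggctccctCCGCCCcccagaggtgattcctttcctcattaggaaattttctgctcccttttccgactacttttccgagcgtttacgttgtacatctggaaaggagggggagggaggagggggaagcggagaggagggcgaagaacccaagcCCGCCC
Itgb7: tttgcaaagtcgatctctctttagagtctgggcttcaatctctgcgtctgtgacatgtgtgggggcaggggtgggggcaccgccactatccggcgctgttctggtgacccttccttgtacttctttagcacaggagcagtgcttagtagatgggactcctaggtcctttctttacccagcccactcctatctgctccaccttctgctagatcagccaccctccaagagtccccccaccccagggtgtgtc

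The *Lamb2* and *Itgb7* windows held no GC box and the *Itga5* window held 2. Over the 7 called genes with an entry, 3 windows held a GC box (*Itga5*, *Lama5* and *Itgb5*), beside 32.7% of all 32851 windows of this length. The TCF/LEF letters CTTTGAA or CTTTGAT, searched on both strands, were in 0 of the 7 windows and in 7.48% of all windows. This says only that these letters are not in these windows.

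Among the integrin alpha subunits the mutant epithelium had less *Itga5* RNA, while the values of the more abundant *Itga6*, *Itga3* and *Itgav* overlapped between genotypes. *Itga5* (mm9 chr15:103174720-103197194, minus strand) encodes the alpha subunit of the classical fibronectin receptor, which it forms with the product of *Itgb1*. It had 249, 200.4 and 142 normalized counts in wild type libraries 1 to 3 and 73.5, 75.6 and 69.7 in mutant libraries 1 to 3. The mutant values were tightly grouped and the wild type values were not, yet the lowest wild type library was well above the highest mutant. *Itga5* was 2.70-fold lower (log2 fold change -1.43, SE 0.25, adjusted p = 8.21e-04).

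*Itga6* had 1086, 993 and 786 normalized counts in the wild type and 853, 776 and 978 in the mutant libraries (log2 fold change -0.14, SE 0.13). *Itga3*, a laminin receptor subunit paired with *Itgb1*, had 475, 421 and 299 against 356, 267 and 389 (-0.24, SE 0.19). *Itgav*, whose product pairs with several beta subunits and binds fibronectin and vitronectin, had 367, 416 and 207 against 337, 304 and 305 (-0.07, SE 0.21). In these 3 subunits the genotypes overlapped and the test was not passed (adjusted p = 0.473, 0.378 and 0.845), and all 3 stayed below 0 with a gene length correction centred on 0 (-0.0572, -0.16 and -0.0358), though not with the uncentred one, which raised the median of all genes by 0.13. As a share of summed alpha subunit RPKM, *Itga5* was 10.95% ± 0.974 in the wild type and 4.83% ± 0.706 in the mutant, and *Itga6* was 54.7% ± 2.55 and 57.8% ± 0.482.

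The collagen receptor subunit *Itga2* had 27.2, 27.97 and 30.4 normalized counts in the wild type and 10.4, 8.52 and 54.2 in the mutant, so that mutant library 3 alone lay above the wild type. Its test was not passed (log2 fold change -0.23, SE 0.65, adjusted p = 0.821). *Itga9* had 15, 10 and 0 raw counts against 0, 13 and 14, and *Itga8*, the partner of *Itgb1* in nephronectin binding, had no count. No other alpha subunit reached 50 normalized counts in the wild type.

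Among the beta subunits, *Itgb5* and *Itgb7* were called lower, while *Itgb1* and *Itgb6*, the most abundant and the third, had higher mutant means and were not called. *Itgb1* (mm9 chr8:131209554-131257100, plus strand) had 9008, 8768 and 8058 normalized counts in the wild type and 9385, 8722 and 9738 in the mutant libraries, with overlap (log2 fold change 0.11, SE 0.07, adjusted p = 0.271). *Itgb6*, an epithelial subunit that pairs with the *Itgav* product and is known for activating latent TGF-beta, had 776, 752 and 713 against 969, 820.0 and 916. All 3 mutant libraries were above the wild type for *Itgb6*, and the change missed the threshold (log2 fold change 0.27, SE 0.11, adjusted p = 0.0815).

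*Itgb5* (mm9 chr16:33829751-33949239, plus strand), the vitronectin-binding partner of *Itgav*, had 1298, 1362 and 1084 normalized counts in the wild type and 913, 717 and 802 in the mutant. Its groups did not overlap, and it was 1.54-fold lower (log2 fold change -0.62, SE 0.12, adjusted p = 0.00151). Per length, *Itgb5* stood at 21.5, 22.6 and 17.97 RPKM in the wild type and 15.1, 11.9 and 13.3 in the mutant libraries, and *Itgb6* at 8.28, 8.02 and 7.60 and 10.3, 8.74 and 9.76. Per length *Itgb5* was thus above *Itgb6*, another partner of *Itgav*, in every library of both genotypes. In counts it was above *Itgb6* in the wild type libraries only. The ratio of *Itgb5* to *Itgb6* counts was 1.67, 1.81 and 1.52 in the wild type and 0.942, 0.874 and 0.876 in the mutant libraries. The call of *Itgb5* was lost without wild type library 1 (adjusted p = 0.0104), wild type library 2 (0.0118) or mutant library 2 (0.0108).

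*Itgb7* (mm9 chr15:102046426-102062366, minus strand) is known as the beta subunit of lymphocyte homing receptors, where its partners are the products of *Itga4* and *Itgae*. It had 310.4, 437 and 234 normalized counts in the wild type and 166, 56.4 and 143 in the mutant, with mutant library 2 the lowest, and was 2.69-fold lower (log2 fold change -1.43, SE 0.31, adjusted p = 0.00341). Its alpha partners were near the floor, with 0, 0 and 0 raw counts of *Itga4* in the wild type and 0, 0 and 4 in the mutant, and 9, 3 and 4 against 1, 18 and 3 of *Itgae*. Of 8 blood markers, *Ptprc*, *Hbb-b1* and *Hba-a1* were at 0 in all libraries and the summed level of the list was 28.5 to 64.3 normalized counts in the wild type and 21.0 to 48.7 in the mutant. Without wild type library 1 or 2 *Itgb7* missed the threshold (adjusted p = 0.0114 and 0.0282).

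*Itgb4*, which with *Itga6* forms the hemidesmosome receptor for laminin, had 102, 91.4 and 112 normalized counts in the wild type and 98.4, 109 and 65.3 in the mutant (log2 fold change -0.17, SE 0.28, adjusted p = 0.696). *Itgb8* was at 10 raw counts or fewer in every library. Of the 4 genes that are no subunit, *Itgb1bp1*, which encodes a cytoplasmic binder of the *Itgb1* tail, had 669.6, 652 and 695 against 775, 842 and 817, higher in all 3 mutant libraries but not called (log2 fold change 0.27, SE 0.11, adjusted p = 0.0782). *Itgb3bp*, a centromere protein gene in spite of its name, had 788, 679.6 and 901 against 805, 957 and 892 (adjusted p = 0.353), *Itgb1bp2* was at 4 raw counts or fewer and *Itgbl1* had none. Summed over the 27 subunits, normalized counts were 12978 ± 1125 in the wild type and 12882 ± 831 in the mutant, a sum led by *Itgb1*.

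**Figure D3:**
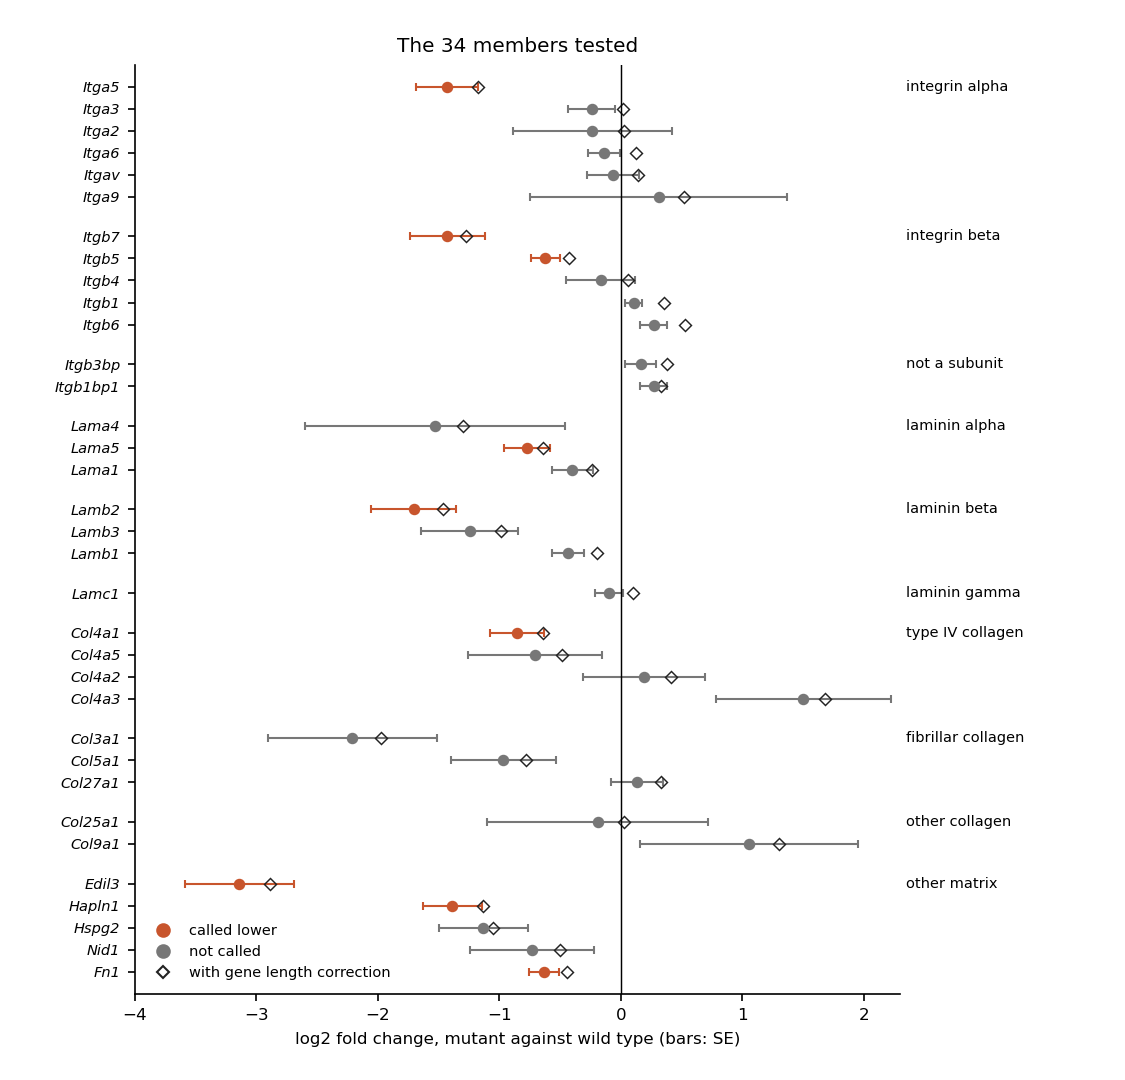
Log2 fold change (mutant against wild type, horizontal axis, bars SE) of the 34 members tested, by role. Filled orange points were called lower, grey points were not called, and open diamonds give the value after correction for gene length. All 7 laminin chains (*Lamc1* not after the uncentred length correction drawn here) and all 5 other matrix genes lie left of 0, and *Lamc1*, *Itgb1* and *Itga6* lie close to it.

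Laminin chains as a group had lower values in the mutant, unevenly among chains that share a trimer. Of 10 chains 7 were tested, all 7 had a log2 fold change below 0 (*Lamc1* at 0.10 with the uncentred gene length correction and -0.0769 with the centred one) and 2 were called lower, *Lamb2* and *Lama5*, beside 5.83% of all tested genes. The median of the 7 was -0.77, beside -0.04 over all tested genes. The summed normalized counts of the 10 chains were 2575, 2941 and 2348 in wild type libraries 1 to 3 and 1858, 2096 and 1890.5 in mutant libraries 1 to 3.

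*Lamc1* (mm9 chr1:155066052-155179916, minus strand), the general gamma chain gene, had 776, 851 and 817 normalized counts in the wild type and 794, 811 and 680.3 in the mutant, with overlap (log2 fold change -0.10, SE 0.12, adjusted p = 0.568).

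*Lamb3*, a beta chain of epithelial laminin, had 97.5, 168 and 57.03 normalized counts in the wild type and 50.7, 28.8 and 56.4 in the mutant, just apart, and missed the threshold (log2 fold change -1.24, SE 0.40, adjusted p = 0.0291). Of the 6 fits with a library left out it was called in 1, without wild type library 3 (-1.53, adjusted p = 0.00661). Without wild type library 2 the log2 fold change was -0.77 (adjusted p = 0.233), and without mutant library 2 the adjusted p was 0.106. *Lama3*, an alpha chain of epithelial laminin, had 10, 24 and 9 raw counts against 0, 5 and 1 and was too low to be tested. Both were lower in every mutant library than in any wild type library.

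*Lamb2* (mm9 chr9:108382193-108392861, plus strand), the beta chain of laminin-521, had 143, 158 and 73.2 normalized counts in the wild type and 28.99, 46.9 and 38.7 in the mutant. The wild type spread was wide, with library 3 the lowest, and *Lamb2* was 3.26-fold lower (log2 fold change -1.71, SE 0.35, adjusted p = 0.00237). *Lamb1*, the beta chain paired with *Lama1* or *Lama5* in most embryonic basement membranes, had 814, 894 and 776 against 513, 675 and 652 normalized counts, without overlap but not called (log2 fold change -0.43, SE 0.13, adjusted p = 0.0209). The ratio of *Lamb2* to *Lamb1* counts was 0.176, 0.176 and 0.0944 in the wild type and 0.0566, 0.0694 and 0.0594 in the mutant libraries. Without wild type library 1, wild type library 2 or mutant library 1 the adjusted p of *Lamb2* was 0.0157, 0.0199 and 0.0128.

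*Lama5* (mm9 chr2:179911078-179960564, minus strand) encodes the alpha chain of laminin-511 and laminin-521. It had 335, 435 and 338 normalized counts in the wild type and 208, 261 and 179 in the mutant, with every mutant library below the wild type, and was 1.71-fold lower (log2 fold change -0.77, SE 0.19, adjusted p = 0.00644). *Lama1*, the main laminin alpha chain of early embryos, had 377, 369 and 278 against 254, 265 and 258, also without overlap, and was not called (log2 fold change -0.40, SE 0.17, adjusted p = 0.0926). The ratio of *Lama5* to *Lama1* counts ran from 0.888 to 1.22 in the wild type and from 0.695 to 0.984 in the mutant libraries and so overlapped. The *Lama5* call was lost without wild type library 1 or 2 or mutant library 1 or 3 (adjusted p = 0.0148, 0.0424, 0.0272 and 0.0343).

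The mesenchymal and vessel chains were near the floor. *Lama4* had 24, 43 and 0 raw counts in the wild type and 8, 0 and 12 in the mutant (log2 fold change -1.53, SE 1.07, adjusted p = 0.305), *Lama2* had 4 raw counts in all 3 wild type libraries together and 10 in the mutant, and *Lamc3* had 0 and 4.

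Of 44 collagen genes 9 were tested and 1 was called lower, beside 5.83% of all tested genes. *Col4a1* (mm9 chr8:11198423-11312826, minus strand), a chain of the network that spans all basement membranes, had 249, 286 and 171 normalized counts in the wild type and 125, 129 and 136 in the mutant. Its lowest wild type library, number 3, stood above the highest mutant library, and it was 1.81-fold lower (log2 fold change -0.86, SE 0.22, adjusted p = 0.00964). It held in 8 of 18 alternative settings, the fewest of the 9 calls, and its adjusted p was 0.0243 to 0.0624 when either of wild type libraries 1 and 2 or any mutant library was left out.

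*Col4a2* (mm9 chr8:11312805-11449287, plus strand), which supplies the other chain of the same trimer, had 43.1, 69.9 and 18.1 normalized counts in the wild type and 37.3, 34.1 and 78.5 in the mutant, with overlap (log2 fold change 0.19, SE 0.50, adjusted p = 0.811). The ratio of *Col4a1* to *Col4a2* counts was 5.78, 4.09 and 9.47 in the wild type and 3.36, 3.78 and 1.73 in the mutant libraries. Both genes start from a shared promoter region and are read away from each other, and their annotated first exons overlap by 22 bases, at chr8:11312805-11312826 in mm9. The overlap is printed because it joins the called gene to its uncalled partner, as it stands in RefSeq (GRCm38.p6, chr8:11312805-11312826 there too), once on the strand of each gene.
Col4a1: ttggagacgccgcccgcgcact
Col4a2: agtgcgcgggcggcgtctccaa

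The 22 bases are 0.323% of the exon bases of *Col4a1*. *Col4a3* and *Col4a5*, chains of the mature kidney and lung network, were low. *Col4a3* had 3, 10 and 17 raw counts against 10, 30 and 35 (adjusted p = 0.129), and *Col4a5* had 25, 22 and 44 against 18, 14 and 17 (adjusted p = 0.366). *Col4a5* and *Col4a6* are X-linked and were read in libraries of different sex. *Col4a6* was at 5 raw counts or fewer in every library, and *Col4a4* at 4 or fewer.

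Fibrillar collagens had no call. *Col27a1* was the highest, with 250.4, 225 and 153 normalized counts in the wild type and 249.5, 191 and 248 in the mutant, fully overlapping (log2 fold change 0.13, SE 0.21, adjusted p = 0.685). *Col5a1* had 36.6, 82.04 and 63.7 against 22.8, 37.3 and 33.2 (log2 fold change -0.97, SE 0.43, adjusted p = 0.108). *Col3a1*, a mesenchymal collagen, had 45, 40 and 11 against 8, 6 and 4 raw counts, lower in all mutant libraries, and missed the threshold (log2 fold change -2.21, SE 0.69, adjusted p = 0.0263). Over all libraries *Col5a1* and *Col3a1* were on average under the 50 normalized counts that a call needs, so neither could be called at any p.

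The type I chains, which fibroblasts make in bulk, were near the floor. *Col1a1* had 18, 0 and 2 raw counts in the wild type and 0, 1 and 0 in the mutant, and *Col1a2* had 5, 0 and 5 against 9, 10 and 0. No type VI chain exceeded 20 raw counts in a library. The highest of the other collagens per length, *Col9a3*, *Col23a1* and *Col25a1*, were low as well. *Col9a3* had 10, 9 and 6 raw counts in the wild type and 0, 0 and 3 in the mutant. *Col23a1* had 4, 33 and 2 against 4, 10 and 5, and *Col25a1* had 15, 8 and 19 against 30, 1 and 2. Of the 3 genes *Col25a1* alone passed the filter, with a log2 fold change of -0.19 (SE 0.91, adjusted p = 0.897). *Col17a1* and *Col7a1*, the anchoring collagens of skin, were at 9 and 3 raw counts at most.

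The other matrix genes held the largest change of all members tested, that of *Edil3*. This gene (mm9 chr13:88961077-89462828, plus strand) encodes a secreted ligand of alpha-v integrins, among them the one with the *Itgb5* subunit. It had 136, 187 and 221 normalized counts in the wild type and 8.28, 11.7 and 42.04 in the mutant, where library 3 was the highest. *Edil3* was 8.81-fold lower (log2 fold change -3.14, SE 0.45, adjusted p = 1.19e-04), and with any library left out its log2 fold change lay between -4.17 and -2.76.

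*Hapln1* (mm9 chr13:89680241-89751437, plus strand) encodes link protein, which holds proteoglycans on hyaluronan, and is the next protein-coding gene after *Edil3* on the same strand, 217.412 kb away. It had 209, 283 and 405 normalized counts in the wild type and 98.4, 110.8 and 134 in the mutant, so its wild type spread was wide, and library 3, the lowest wild type library in 6 of the 9 called genes, was the highest here. *Hapln1* was 2.62-fold lower (log2 fold change -1.39, SE 0.24, adjusted p = 7.27e-04).

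*Fn1* (mm9 chr1:71632094-71699774, minus strand), which encodes fibronectin, the ligand of the *Itga5* receptor, had 859, 957 and 844 normalized counts in the wild type and 502, 612 and 601 in the mutant. Its groups were far apart for their spread, and it was 1.55-fold lower (log2 fold change -0.63, SE 0.12, adjusted p = 0.00147). Without wild type library 2 or mutant library 1 the adjusted p was 0.0111 and 0.0117. Of its exon bases 3.50% overlap Apol7d on the opposite strand, and whether reads were counted by strand is not given in the sources used here.

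*Hspg2*, which encodes perlecan, had 110.7, 78.3 and 63.7 against 48.7, 28.8 and 37.6 normalized counts, lower in all 3 mutant libraries but not called (log2 fold change -1.13, SE 0.37, adjusted p = 0.0306). The nidogen gene *Nid1*, whose product links laminin to type IV collagen, had 40.3, 39.2 and 26.6 against 30.03, 14.9 and 18.8, with overlap (log2 fold change -0.73, SE 0.51, adjusted p = 0.306). *Nid2* had 18 raw counts in the wild type and 1 in the mutant libraries together, and *Vtn*, the vitronectin gene, had 41, 8 and 0 against 3, 3 and 0. Summed over the 7 matrix genes, normalized counts were 1508 ± 91.9 in the wild type and 769 ± 72.6 in the mutant.

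Members best known from mesenchyme had a lower sum in every mutant library, while the summed level of mesenchyme markers overlapped between genotypes. Of the 31 mesenchymal members 9 were tested and 4, *Itga5*, *Fn1*, *Edil3* and *Hapln1*, were called lower, beside 5.83% of all tested genes, and the class summed to 1696, 1877 and 1726 normalized counts in wild type libraries 1 to 3 and 783, 908 and 962 in the mutant. Most of this sum lay in the 4 called genes, led by *Fn1* (887 ± 61.6 in the wild type), so the lower sum largely restates those calls. Most of the class was near the floor, since 26 of the 31 had under 50 normalized counts in the wild type or none. Of the 23 epithelial members 17 were tested and 4, *Itgb5*, *Lama5*, *Lamb2* and *Col4a1*, were called lower, beside the same 5.83%. This class, which rests on general knowledge of the genes, summed to 15347 ± 1277 against 14770.0 ± 698, a sum led by *Itgb1*.

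The 18 mesenchyme markers, none of which is a member, summed to 1404 to 1743 normalized counts in the wild type and 1135 to 1872 in the mutant libraries. Most of this was *Vim*, which had 1179, 1389 and 1188 against 912, 864 and 962 (log2 fold change -0.46, adjusted p = 0.00494, under the size needed for a call). Without *Vim*, a choice made after its values were seen, the sums were 408, 354 and 216 in the wild type and 223, 491 and 909 in the mutant, the last led by *Acta2* (489) and *Tagln* (264) in mutant library 3. Of the defining genes, *Meox2* was at 0 in every library, *Twist1* and *Twist2* were under 5 normalized counts, and *Pdgfra* had 21.6, 5.59 and 19.96 in the wild type and 0, 0 and 1.11 in the mutant. Of the 18 markers 12 stayed under 50 normalized counts in every library. Only 9 of the 18 were tested, 5 with a log2 fold change above 0 and 4 below 0. Their median was 0.58, beside -0.04 over all tested genes. The edgeR fit called 0 of these 9, beside 5.83% of all tested genes lower and 2.78% higher. At an unadjusted p under 0.05, 2 were higher and 1 lower, and DESeq2 called 1, *Tagln*, higher. The summed counts of *Col1a1*, *Col1a2* and *Col3a1* were 17.1 to 63.8 in the wild type and 4.42 to 18.1 in the mutant. Of the mesothelium markers, *Msln* had 385, 340.3 and 218 against 113, 53.2 and 27.7 and was called lower, *Upk3b* had 320 to 603 over all libraries and *Wt1* was at or near 0. The 4 mesothelium markers summed to 550 to 824 in the wild type and 437 to 715 in the mutant libraries, with overlap. Of the 2 that were tested, 1 had a log2 fold change below 0 and 1 above 0. For endothelium, 5 of 8 markers were at 0 throughout and the list summed to 13.1 to 37.3, and for enteric neural crest the 6 markers summed to 195 to 278. The part of these cells in the results was not tested.

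Length of transcript went with the direction of change across all genes, and members are long. The median of the longest transcript was 3.06 kb over tested genes and 5.92 kb over tested members. The median log2 fold change of all tested genes was 0.19 under 1.5 kb, 0.01 from 1.5 to 3 kb, -0.16 from 3 to 5 kb, -0.15 from 5 to 8 kb and -0.08 from 8 kb. Among genes of at least 5 kb, 110 of 2268 were called lower (4.85%, median log2 fold change -0.13), and among members of that length 6 of 22 were (median -0.67).

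After a correction for gene length, which moved the median of all tested genes up by 0.13 and turned the calls from 32.3% to 66.3% higher, 5 members were called lower, beside 3.19% of all genes: *Edil3*, *Lamb2*, *Itga5*, *Itgb7* and *Hapln1*. *Lama5* (log2 fold change -0.64), *Col4a1* (-0.64), *Fn1* (-0.45) and *Itgb5* (-0.43) then missed the thresholds, and *Itgb6* was called higher, beside 6.26% of all genes (0.53, adjusted p = 0.00209). With the correction centred on 0, 8 members were called lower, all but *Col4a1*, beside 6.01% of all genes, and 0 higher, beside 2.21%, and 26.9% of all calls were higher. With library size as the only scaling, which moved the median of all genes by -0.11, 17.3% of calls were higher and 10 members were called lower, *Lamb1* being the addition.

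**Figure D4:**
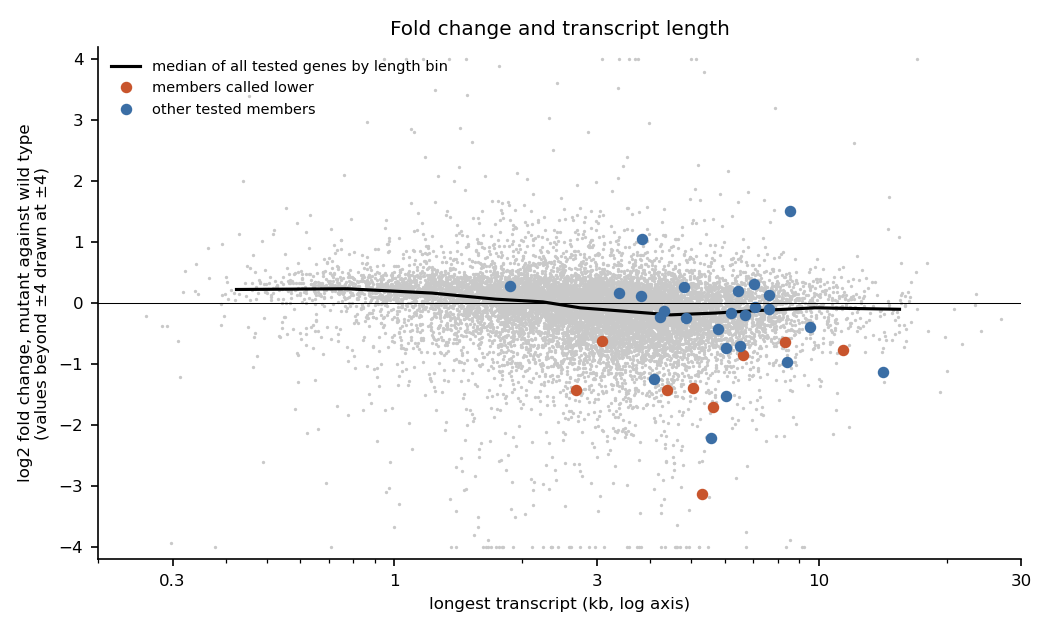
Log2 fold change (vertical axis, values beyond 4 in size drawn at 4) against the longest transcript in kb (log axis) for all tested genes in grey, with the median by length as a black line. Members called lower are orange and the other tested members blue. The median runs from 0.19 for the shortest genes to about -0.16 at 3 to 5 kb, and *Edil3* lies farther below it than any other member.

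Genes that act with these receptors and ligands were taken as 6 lists of 119 genes, of which 88 were tested, 11 were called lower (12.5%, beside 5.83% of all tested genes) and 0 higher, with a median log2 fold change of -0.26. At an unadjusted p under 0.05, 32 partner genes were lower and 7 higher, again without a count over all tested genes. DESeq2 called 12 partner genes lower and 0 higher, beside 832 lower and 423 higher of all 12501 tested genes. In the integrin adhesion complex 1 of 22 tested genes was called, *Actn4*, an actin crosslinker, at 6279 ± 1221 against 3800.2 ± 459.7 normalized counts (log2 fold change -0.72, adjusted p = 4.26e-04). Among 6 tested hemidesmosome partners it was the keratin gene *Krt18* (-0.54, adjusted p = 2.74e-05).

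Among 12 other matrix receptors tested, *Bcam*, which encodes a receptor for the *Lama5* chain, was 2.29-fold lower at 975 ± 119 against 426 ± 112 normalized counts (adjusted p = 8.10e-05). The collagen receptor kinase gene *Ddr1* was 2.33-fold lower at 292 ± 97.8 against 125 ± 19.4 (adjusted p = 0.00227). Of 18 collagen making genes 3 were called lower: *P4ha3*, a prolyl hydroxylase subunit, at 149.7 ± 20.9 against 19.7 ± 10.6 (log2 fold change -2.91), *Serpinh1*, the collagen chaperone, at -0.56, and *Bmp1*, the procollagen C-proteinase, at -1.42. Of 16 proteases and inhibitors, *Mmp11* (-1.68), *Mmp14* (-0.67) and *Timp2* (-0.86) were called lower, and of 14 other basement membrane genes *Smoc2* (-0.94). The edgeR fit called no other gene of these lists. DESeq2 did not call *Smoc2* (adjusted p = 0.0502), and it also called lower the talin gene *Tln1* (log2 fold change -0.56, adjusted p = 0.00887) and the peroxidasin gene *Pxdn* (-0.64, adjusted p = 0.00308). With the uncentred length correction the vinculin gene *Vcl* (0.59) and the thrombospondin receptor gene *Cd47* (0.70) were called higher, and with the centred one *Cd47* alone was (0.52).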

How the data were processed

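Polyadenylated RNA of 500 sorted cells per library was turned into cDNA with the SMARTer v4 kit (15 PCR cycles), sequenced and, per the labels and the methods, mapped by the authors with STAR 2.5.2b to mm9 and counted per gene with featureCounts 1.5.1 on uniquely mapping reads. The deposited values are raw read counts per gene, not normalized, 1 table per library. PCR copies were not told apart from molecules, and the strand setting is not given in the sources used here.

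Counts were tested here with edgeR 4.0.16 in R 4.3.3 (TMM, filterByExpr, quasi-likelihood test on genotype, Benjamini-Hochberg adjustment over 12501 genes), with all 6 libraries in 1 fit. The mean normalized count of 50 stands in for the RPKM of 50 in the authors' thresholds, which was kept as an alternative. RPKM and the gene length correction used the longest GENCODE M1 transcript (mm9), and the correction was a loess curve (span 0.5). Positions were those of the annotated gene, and overlaps used the merged exons of all its transcripts. The statistics were tested on simulated data. No 2 libraries agreed within sampling noise: the chi-square per gene was 5.66 to 15.8 within and 24.1 to 46.6 between genotypes.

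Members, gene lists and tests were chosen with earlier results of these data known. Of the genes that meet the symbol rule 1 is not reported here, and it stays out of all counts and sums over members. Named were all called members, the 3 highest per role by wild type RPKM, their partners in a complex, the 4 genes that are no subunit and called partner genes. *Itga4*, *Itgae*, *Col1a1*, *Col1a2*, *Col7a1*, *Col17a1*, *Hspg2*, *Nid1*, *Nid2*, *Vtn*, *Tln1*, *Pxdn*, *Vcl* and *Cd47* were added after their values were seen. Exact permutation tests were not used, since 3 against 3 libraries cannot give a p under 0.1. The 18 alternatives were DESeq2 1.42.0, other scalings, filters and thresholds, length correction, blocking by replicate number and leaving out single libraries.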

Additional observations from a re-analysis of the deposited data

How the results depend on the processing

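Of 131 checks of counts and medians, 99 stayed within 1.5 times the reported count or 1 SD of the median, and of 549 checks of single members 485 kept direction and side of the threshold, 38 lost a call, 5 gained one and 21 turned sign. The settings that change only a threshold (minimum fold change, adjusted p or RPKM) reused the main fit. In them no log2 fold change and no members' median could move, and members under the level needed for a call could gain none. Part of the 99 and of the 485 was thus fixed in advance. With each library left out in turn, genes called lower ran from 405 to 867, genes called higher from 260 to 516, members called lower from 3 to 10, partner genes called lower from 7 to 12 and higher from 0 to 1, and the members' median log2 fold change from -0.55 to -0.37. At a log2 fold change of at least 1, 85 genes were higher and 284 lower, with 5 members and 5 partner genes lower. With no minimum fold change, 902 genes and 1 partner gene were higher. At an adjusted p under 0.05, 1178 genes, 11 members and 18 partner genes were lower. With the RPKM minimum of 50, which of all members *Itgb1* alone reaches, 144 genes were higher and 47 lower, with 0 members and 3 partner genes lower. Library size as the only scaling gave 200 genes higher. With no filter on low counts the members' median was -0.63. The gene length correction gave 772 genes higher and 393 lower, 5 members lower and 1 higher, 2 partner genes higher and a members' median of -0.21. Centred on 0, it gave 1 partner gene higher. The cause of these shifts was not tested, other than the thresholds that set them by construction.

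Under the length correction the log2 fold changes of *Col25a1* (0.0258), *Itga2* (0.0258), *Itga3* (0.0180), *Itga6* (0.12), *Itgav* (0.15), *Itgb4* (0.0628) and *Lamc1* (0.10) turned above 0. That correction raised the median of all genes by 0.13, and centred on 0 it left all 7 below 0. With 1 library left out, uncalled members also turned sign, with ranges of -2.92 to 0.34 for *Col25a1*, -0.0358 to 0.28 for *Col27a1*, -0.29 to 0.70 for *Col4a2*, -1.58 to 0.17 for *Itga2*, -0.25 to 1.04 for *Itga9*, -0.30 to 0.13 for *Itgav* and -0.31 to 0.0230 for *Itgb4*.

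The replicate numbers did not pair the libraries: same-numbered libraries of both genotypes had correlations of 0.0097, -0.045 and -0.018 in their deviations from the group means, none over 0.1. With the replicate number as a block, 339 genes were called higher and 691 lower, 8 members were lower (*Col4a1* missed, adjusted p = 0.0151) and the members' median was -0.63. The level needed for a call limits the list: members under 50 normalized counts in the wild type, 59 of the 83 with counts, could not be called in the main fit.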
